A study of Mus musculus with 29 samples.

Results

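The genes described are 10 that signalling by the cytokine IL-17A is known to raise or whose products mark the neutrophils it draws in: the chemokines Cxcl1, Cxcl2, Ccl2 and Ccl20, the cytokines Tnf and Il1b, the neutrophil genes S100a8, S100a9 and Mmp9, and Steap4. They were chosen by name, and all 10 are among the 22187 genes of the deposited table. The 29 libraries are polyA RNA of mouse liver (C57BL/6), and every mouse, the WT ones included, had received 25 mg/kg of the liver carcinogen diethylnitrosamine (DEN) at 2 weeks of age, followed by 18 weeks of feeding. Tumour libraries comprised 4 labelled IL17RA-/- and 3 WT on HFD_alcohol, and 3 labelled IL17RA-/- and 3 WT on HFD. Non-tumour liver libraries comprised 5 labelled IL17RA-/- and 5 WT on HFD_alcohol, and 3 labelled IL17RA-/- and 3 WT on HFD. IL17RA-/- is written without a cell type or promoter in the labels, and which libraries share a mouse, and whether any were pooled, is not stated. The labels call the diets HFD and HFD_alcohol, whereas the series text speaks of liquid ethanol or pair-feeding; the labels are used here.

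IL-17A binds a receptor of the subunits Il17ra and Il17rc, and the adaptor Traf3ip2 (Act1) passes the signal on to NF-kB, MAP kinases and C/EBP factors, largely in epithelial cells, fibroblasts and macrophages. Its best known targets are chemokines: Cxcl1 and Cxcl2 call neutrophils through Cxcr2, Ccl2 calls monocytes through Ccr2, and Ccl20 calls Ccr6-bearing lymphocytes. In liver, hepatocytes, stellate cells and Kupffer cells, the resident macrophages, can all make such chemokines, so bulk RNA does not show which cell made a transcript.

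The promoters of Cxcl1, Cxcl2 and Ccl20 are shown because 2 of these genes were higher in tumours and the neighbouring Cxcl2 was not. The promoters of S100a8 and S100a9 are shown because their transcripts went up and down together across libraries. Each stretch runs from 250 bases before to 50 after the gene's start in RefSeq (build GRCm38.p6), 5′ to 3′ on the gene's own strand. Capitals mark matches to the NF-kB consensus in the first 3 sequences and to the C/EBP pattern TTNNGNAA in the other 2. The stretches are Cxcl1 at chr5:90890995-90891294 (+ strand), Cxcl2 at chr5:90903649-90903948 (+), Ccl20 at chr1:83116516-83116815 (+), S100a8 at chr3:90668821-90669120 (+) and S100a9 at chr3:90695672-90695971 (- strand).
Cxcl1: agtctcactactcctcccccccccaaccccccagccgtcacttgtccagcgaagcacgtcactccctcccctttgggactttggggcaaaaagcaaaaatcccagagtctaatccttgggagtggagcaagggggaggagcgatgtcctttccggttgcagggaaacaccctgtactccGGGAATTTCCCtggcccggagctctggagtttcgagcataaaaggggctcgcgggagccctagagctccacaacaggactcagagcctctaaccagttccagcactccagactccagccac
Cxcl2: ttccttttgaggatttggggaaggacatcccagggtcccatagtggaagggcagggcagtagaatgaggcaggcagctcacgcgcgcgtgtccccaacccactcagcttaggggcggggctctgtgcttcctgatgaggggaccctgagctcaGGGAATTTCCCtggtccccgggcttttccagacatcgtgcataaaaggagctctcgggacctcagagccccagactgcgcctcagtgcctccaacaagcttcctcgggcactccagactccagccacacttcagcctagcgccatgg
Ccl20: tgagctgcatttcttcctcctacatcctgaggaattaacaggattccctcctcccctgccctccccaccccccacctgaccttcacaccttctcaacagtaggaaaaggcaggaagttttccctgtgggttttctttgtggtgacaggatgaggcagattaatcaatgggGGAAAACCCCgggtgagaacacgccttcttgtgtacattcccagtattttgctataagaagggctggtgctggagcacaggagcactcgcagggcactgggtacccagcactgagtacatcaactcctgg
S100a8: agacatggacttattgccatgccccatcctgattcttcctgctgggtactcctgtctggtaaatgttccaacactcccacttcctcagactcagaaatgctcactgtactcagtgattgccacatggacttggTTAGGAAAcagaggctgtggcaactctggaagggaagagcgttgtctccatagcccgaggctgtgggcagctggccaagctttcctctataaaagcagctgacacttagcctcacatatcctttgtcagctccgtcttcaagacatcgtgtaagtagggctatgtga
S100a9: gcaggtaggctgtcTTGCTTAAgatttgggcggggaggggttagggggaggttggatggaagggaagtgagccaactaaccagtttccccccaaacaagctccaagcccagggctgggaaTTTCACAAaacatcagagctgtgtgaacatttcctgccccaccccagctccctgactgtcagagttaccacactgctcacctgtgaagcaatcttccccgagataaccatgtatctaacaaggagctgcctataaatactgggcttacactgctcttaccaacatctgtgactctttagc

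RefSeq promoters were matched for 8 of the 10 genes, all but Ccl2 and Mmp9. On either strand, the NF-kB consensus occurred in 4 of these 8, Cxcl1, Cxcl2, Ccl20 and Steap4, against 8.46% of 32851 promoters of the same length. Cxcl1 and Cxcl2 held the same letters, with the match starting 71 and 97 bases before the start; the overlapping matches on both strands are the 11 capitals shown. The looser pattern TTNNGNAA was found in 6 of the 8 and in 40.7% of all promoters, and the AP-1 pattern TGANTCA was in 0 of the 8, against 7.81%. TATAAA was in 5 of the 8, against 13.6%. Counted from the gene's start, it began at -30 in S100a8, -29 in Tnf and -31 in Il1b. In S100a9 it began at 1, and in Steap4 it was on the opposite strand at -215, so not every match has the place of a TATA box. Cxcl1 and Cxcl2 lie 10755 bases apart on chromosome 5, and S100a8 and S100a9 lie 22596 bases apart on chromosome 3.

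Recovered depth was 3213696 to 9169116 counts per tumour library and 4653422 to 9660584 per non-tumour library, so that 3 counts, taken as the counting floor, stood for 0.327 to 0.934 and 0.311 to 0.645 CPM, the count scaled to a common library total. Summed tumour markers (Afp, Gpc3 and others) were 405.9 to 1199 CPM in tumour libraries and 13.7 to 488.7 CPM in non-tumour libraries. HFD non-tumour replicate 3 labelled IL17RA-/-, the highest non-tumour library, lay above 2 tumours, HFD WT replicate 4 (405.9 CPM) and HFD_alcohol replicate 4 labelled IL17RA-/- (447.7 CPM). Il17ra itself was not called between libraries labelled IL17RA-/- and WT in either tissue or diet, and its mean was higher with the label in tumours. In tumours its mean was 50.4 ± 6.33 CPM (SD, n = 4) against 33.2 ± 0.753 (n = 3) on HFD_alcohol and 59.4 ± 4.45 (n = 3) against 32.8 ± 13.8 (n = 3) on HFD, with limma adjusted p = 1.0 and 0.0562. In non-tumour liver it was 26.1 ± 8.39 (n = 5) against 27.5 ± 10.2 (n = 5) on HFD_alcohol and 24.5 ± 10.3 (n = 3) against 26.3 ± 1.02 (n = 3) on HFD. The exons targeted are unknown here, a gene-level value would miss the loss of some of them, and every genotype direction below rests on the label.

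Levels of the genes differed widely. Per kilobase of exon, averaged over all 29 libraries, Steap4 was at 93.2 CPM per kb, Cxcl1 at 15.2, S100a9 at 5.36, Ccl2 at 3.57, S100a8 at 2.18 and Il1b at 2.14. Tnf (0.536), Ccl20 (0.427), Cxcl2 (0.391) and Mmp9 (0.285) were the lowest on that scale. Ccl20 was at or under the floor in 24 of the 29 libraries, Cxcl2 and Tnf in 10 each, Mmp9 in 9, S100a8 in 6 and S100a9 in 2. Cxcl1, Ccl2, Il1b and Steap4 were above it in every library. All 290 values of the 10 genes were whole counts (within 0.005), so none held a fraction of a read shared with a similar gene such as Cxcl1 with Cxcl2.

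**Figure D1:**
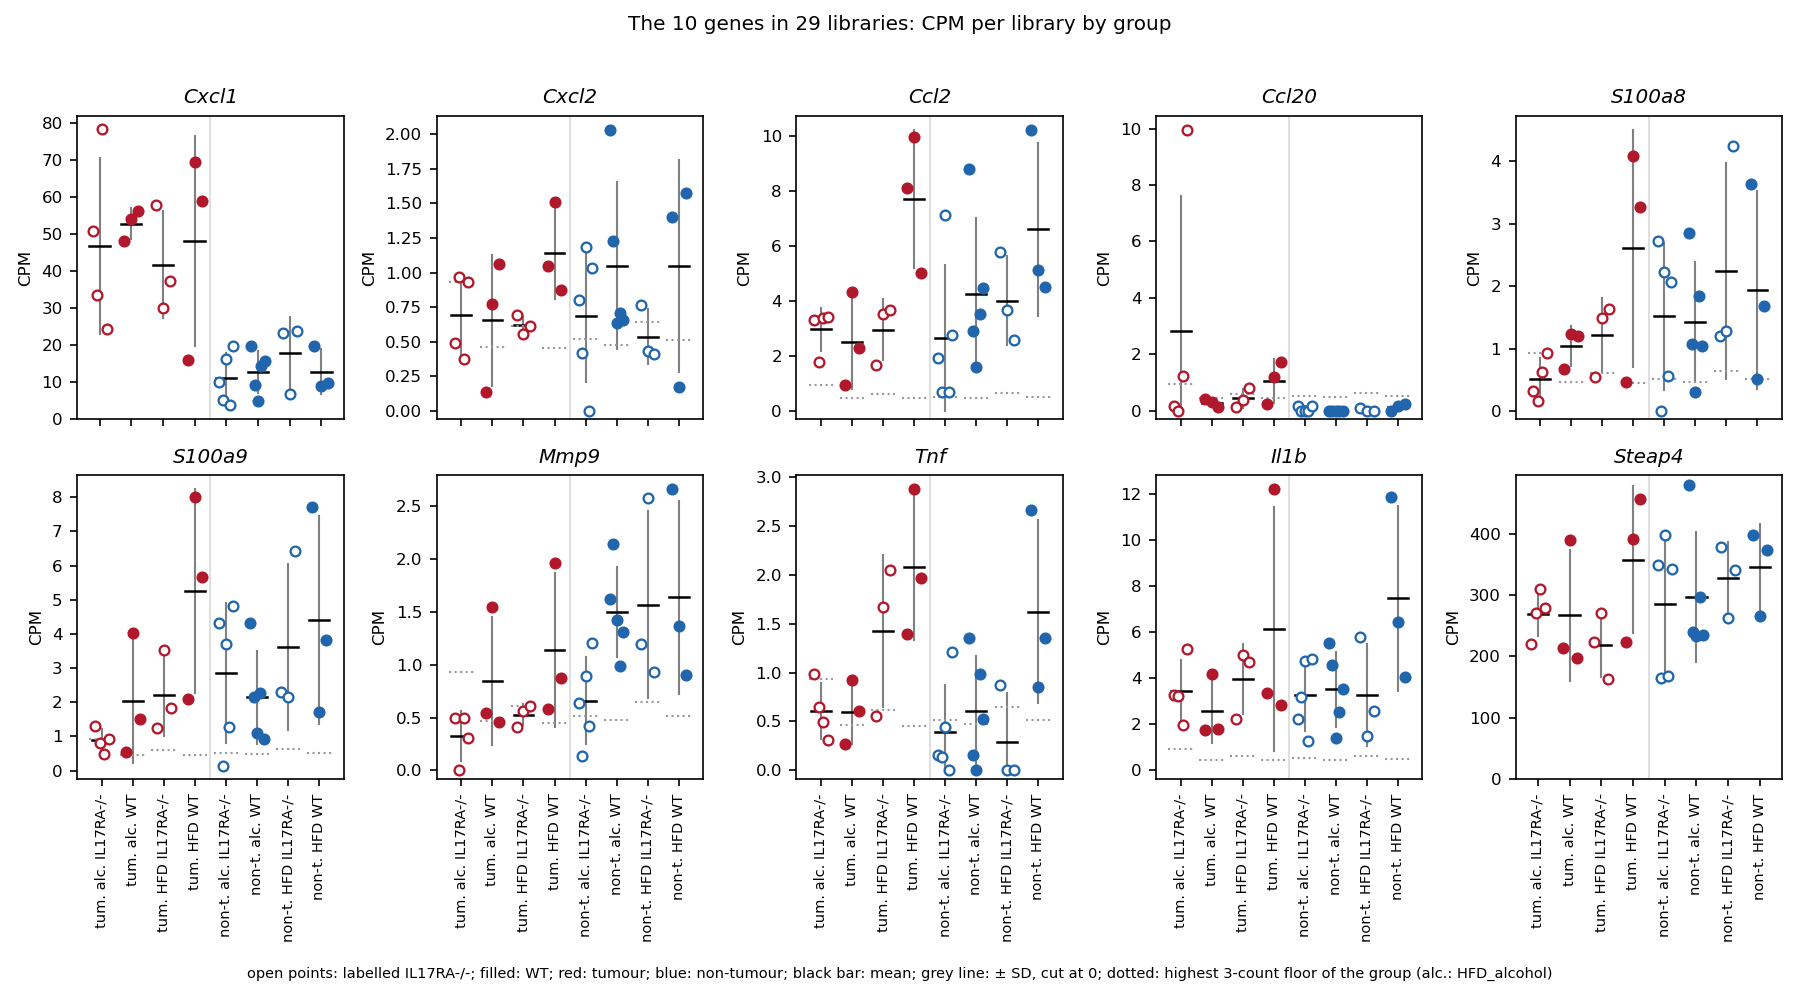
CPM of each of the 10 genes (vertical axes, linear) in every library, by tissue, diet and genotype label; points are libraries, black bars the group mean, grey lines the SD and dotted lines the highest 3-count floor in the group. All tumour groups stand above the non-tumour groups for Cxcl1 apart from HFD WT tumour replicate 4 at 16 CPM, and most values of Cxcl2, Ccl20, Mmp9 and Tnf lie near the dotted floor.

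Tumour against non-tumour liver was the comparison in which these genes were called at all. Over all 29 libraries 3 of the 10 passed limma at an adjusted p under 0.05: Cxcl1 and Ccl20 rose in tumours and Mmp9 fell, while 63.6% of all 13586 genes tested passed. The share called among the 10 was below that background, and their median log2 fold change was -0.08, against 0.09 over all genes. Without 4 libraries that earlier work on these data doubted, 3 rose (Cxcl1, Ccl20 and Tnf) and Mmp9 fell. They were HFD WT tumour replicate 4, HFD WT non-tumour replicate 1, and, labelled IL17RA-/-, HFD_alcohol tumour replicate 5 and HFD non-tumour replicate 3. The first had the lowest summed tumour markers of the tumours, and these non-tumour libraries the highest of theirs (291.8 and 488.7 CPM). Leaving out such libraries can itself widen the tissue difference, so results without them are not independent support.

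Cxcl1, the most abundant of the chemokines here and a ligand of Cxcr2, was at 50.8, 33.4, 78.1 and 24.3 CPM in HFD_alcohol tumours labelled IL17RA-/-, against 10.1, 5.16, 16.3, 3.94 and 19.8 CPM in the matching non-tumour livers. In HFD_alcohol WT it was at 48.0, 54.1 and 56.1 CPM in tumours, against 19.6, 9.34, 5.05, 14.3 and 15.7 CPM in non-tumour livers. On HFD_alcohol every tumour stood above every non-tumour liver, within each genotype label and across both; such separation was seen for 15.1% of all genes in libraries labelled IL17RA-/- and 17% in WT. HFD tumours labelled IL17RA-/- had 57.8, 29.9 and 37.4 CPM, against 23.4, 6.88 and 23.7 CPM in non-tumour livers. HFD WT tumours had 16, 69.4 and 58.9 CPM, against 19.8, 9.03 and 9.67 CPM in non-tumour livers. The value of 16 CPM, in HFD WT tumour replicate 4, was the 1 tumour value inside the non-tumour range. That library also had the lowest summed tumour markers, and the HFD WT fit without it is given below. Whether its low markers bear on its Cxcl1 value was not tested.

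Averaged over diets and genotype labels, Cxcl1 was 1.78 ± 0.27 (SE) higher in tumours on the log2(CPM + 1) scale, with a limma adjusted p of 3.11e-06, and its mean was 47.3 ± 18.1 CPM (SD, n = 13) in tumours and 13.2 ± 6.69 CPM (n = 16) in non-tumour liver. Within groups the difference was 2.06 ± 0.47 (SE; adjusted p = 0.00120) for HFD_alcohol labelled IL17RA-/-, where 39.9% of genes tested and 2 of the 10 were called. It was 2.08 ± 0.51 (adjusted p = 0.00256) for HFD_alcohol WT, where 35.7% of genes and 1 of the 10 were called. For HFD WT it was 1.67 ± 0.58 (adjusted p = 0.0497), where 15.3% of genes and 1 of the 10 were called; this call was lost under 8 of 12 alternatives. Without 1 HFD WT library the adjusted p was 0.244 (tumour replicate 5), 0.141 (tumour replicate 6), 0.171 (non-tumour replicate 2) or 0.157 (non-tumour replicate 3), and without tumour replicate 4 the difference was 2.32 with an adjusted p of 0.00617. It was 1.29 ± 0.58 (adjusted p = 0.0752) for HFD labelled IL17RA-/-, where 40.4% of genes and 1 of the 10, Tnf, were called. That Cxcl1 difference was 0.75 (limma adjusted p = 0.379) without non-tumour replicate 2 of the same labels. It was called with the compared groups alone (limma adjusted p = 0.0438) and without the 4 doubted libraries (1.57, limma adjusted p = 0.0398). Those 4 include non-tumour replicate 3 of these labels, which had the highest non-tumour value. Over the 8 groups the order of means ran from 52.7 CPM in HFD_alcohol WT tumours down to 41.7 CPM in HFD tumours labelled IL17RA-/-, then from 18.0 CPM in HFD non-tumour liver labelled IL17RA-/- down to 11.1 CPM in HFD_alcohol non-tumour liver labelled IL17RA-/-. Neighbours in this order within a tissue differed by less than the larger of their SDs.

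Cxcl2, the paralogue beside Cxcl1 that also binds Cxcr2, had a median of 0.773 CPM in tumours (0.135 to 1.51 CPM) and 0.735 CPM in non-tumour liver (0 to 2.03 CPM). The ranges overlapped fully and the log2 difference was -0.01 ± 0.14 (SE; limma adjusted p = 0.950). The difference between the 2 neighbours was itself tested: log2(CPM + 1) of Cxcl1 minus that of Cxcl2 was 4.68 ± 0.74 (SD, n = 13) in tumours and 2.84 ± 0.65 (n = 16) in non-tumour liver. Tumours exceeded non-tumour liver by 1.79 in this quantity, with a two-sided permutation p of 1e-05, the smallest that 100000 permutations of tissue within diet and genotype label can give. This test was chosen after seeing the data, and Cxcl2 was at or under the floor in 6 of 13 tumour and 4 of 16 non-tumour libraries. The 1.79 is close to the difference of Cxcl1 alone (1.78), so the test largely repeats the Cxcl1 call and is not independent of it.

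Ccl20, the ligand of Ccr6, had 82 counts in all 13 tumours together and 6 in all 16 non-tumour livers. In HFD_alcohol tumours labelled IL17RA-/- it was at 0.164, 0, 1.25 and 9.96 CPM, against 0.160, 0, 0, 0 and 0.173 CPM in the matching non-tumour livers. HFD_alcohol WT tumours had 0.406, 0.309 and 0.151 CPM, and all 5 matching non-tumour livers were at 0 counts. HFD tumours had 0.139, 0.372 and 0.817 CPM with the label IL17RA-/- and 0.232, 1.21 and 1.75 CPM in WT, against 0.109, 0 and 0 CPM and 0, 0.170 and 0.225 CPM in the non-tumour livers of the same labels. All 16 non-tumour livers and 8 of the 13 tumours were at or under the floor, and tumour replicate 7 on HFD_alcohol labelled IL17RA-/- held 32 of the 82 tumour counts. The log2 difference over all libraries was 0.68 ± 0.23 (SE; limma adjusted p = 0.0123), and without that library it was 0.50 with an adjusted p of 0.00134. Within HFD_alcohol labelled IL17RA-/- it was 1.12 ± 0.41 (adjusted p = 0.0301), and without that library 0.37 with an adjusted p of 0.227. Leaving out tumour replicate 6 or non-tumour replicate 2 or 4 of the same labels also ended this call, with adjusted p of 0.0517, 0.0519 and 0.0523, as did limma-voom (0.0917). Ccl20 passed the filter on low values only through the tumours in which it was high, so its call describes those libraries.

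Ccl2, which recruits monocytes through Ccr2, had a median of 3.42 CPM in tumours (0.947 to 9.98 CPM) and 3.59 CPM in non-tumour liver (0.697 to 10.2 CPM). The tissues overlapped over almost the whole range, and the log2 difference was -0.08 ± 0.23 (SE; limma adjusted p = 0.784).

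Mmp9, a gelatinase that neutrophils store in granules and macrophages also make, had a median of 0.541 CPM in tumours (0 to 1.97 CPM) and 1.2 CPM in non-tumour liver (0.139 to 2.66 CPM). It was 0.44 ± 0.14 (SE) lower in tumours on the log2 scale (limma adjusted p = 0.00757), and it was at or under the floor in 7 of 13 tumours and 2 of 16 non-tumour livers. It passed the filter on low values through the non-tumour livers, where 9 reached 1 CPM against 2 of the tumours, so this call describes those libraries. HFD tumours labelled IL17RA-/- had 0.416, 0.558 and 0.613 CPM, against 1.2, 2.58 and 0.932 CPM in non-tumour livers, without overlap (-0.70 ± 0.30; adjusted p = 0.0641), as was the case for 22.3% of all genes. The calprotectin subunits S100a8 and S100a9, abundant in neutrophils and monocytes, had medians of 0.933 and 1.51 CPM in tumours and 1.49 and 2.28 CPM in non-tumour liver. Neither was called (adjusted p = 0.373 and 0.334), and their ranges overlapped.

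Most neutrophil markers measured beside these genes were low. Of 15 markers, 12 had a mean under 1 CPM. Ly6g, the defining surface marker, had 1 count in the 13 tumours and 0 in the 16 non-tumour livers. Mpo had 8 and 21, Elane 6 and 9, and Camp 4 and 16. These are examples from the list, at counts too low to compare the tissues or to measure neutrophil content. The summed list was 7.27 to 26.6 CPM in tumours and 3.35 to 29.1 CPM in non-tumour liver. Csf3r, Fpr1 and Fpr2 made up most of it and are also expressed by other myeloid cells. Of 6 tested, 0 rose and 1, the formyl peptide receptor Fpr1, fell (-0.64 ± 0.22 SE; limma adjusted p = 0.0137), while 4 of the 6 had positive differences and the median was 0.16. In HFD_alcohol WT alone, where 35.7% of all genes were called, 1, the granule protein gene Ltf, rose (0.94 ± 0.36, limma adjusted p = 0.0407) and 0 fell. Ltf averaged under 1 CPM over the 29 libraries, so its call rests on the libraries in which it was high. Over all libraries, Kupffer cell markers fell in 12 of 14 cases and rose in 0, with a median log2 fold change of -1.45 and summed levels of 222.2 to 871.5 CPM in tumours against 344.0 to 2324 CPM in non-tumour liver. Of all genes tested in that comparison, 63.6% were called. In bulk tissue, fewer cells of a type and less RNA per cell cannot be told apart. The part of either cell type in the values of Mmp9, S100a8 and S100a9 was not tested.

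The cytokines Tnf and Il1b, which act with IL-17A on many of the same targets, were not called between tissues over all libraries. Tnf had a median of 0.928 CPM in tumours (0.271 to 2.87 CPM) and 0.485 CPM in non-tumour liver (0 to 2.66 CPM), a log2 difference of 0.37 ± 0.16 (SE) that missed the threshold (limma adjusted p = 0.0510) and passed it under 13 of 35 alternatives, 9 of which left out 1 library. In HFD labelled IL17RA-/- it was at 0.554, 1.67 and 2.04 CPM in tumours, against 0.873, 0 and 0 CPM in non-tumour livers. Those groups overlapped through the first of each. The difference was called (0.92 ± 0.35; adjusted p = 0.0395) but lost under 5 of 11 alternatives, 4 of them with 1 library left out. The libraries concerned were HFD non-tumour replicates 2 and 3 and HFD tumour replicates 5 and 6, all labelled IL17RA-/-, with adjusted p of 0.149, 0.134, 0.117 and 0.159. Il1b had a median of 3.29 CPM in tumours (1.76 to 12.2 CPM) and 3.79 CPM in non-tumour liver (1.27 to 11.9 CPM), with no call (adjusted p = 0.774).

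Steap4, a metalloreductase that IL-17A raises in mouse gut epithelium, was by far the most abundant of the 10, with a median of 269.8 CPM in tumours (163.5 to 456.3 CPM) and 318.3 CPM in non-tumour liver (165.1 to 479.3 CPM). The tissues overlapped and the log2 difference was -0.18 ± 0.16 (SE; limma adjusted p = 0.318).

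**Figure D2:**
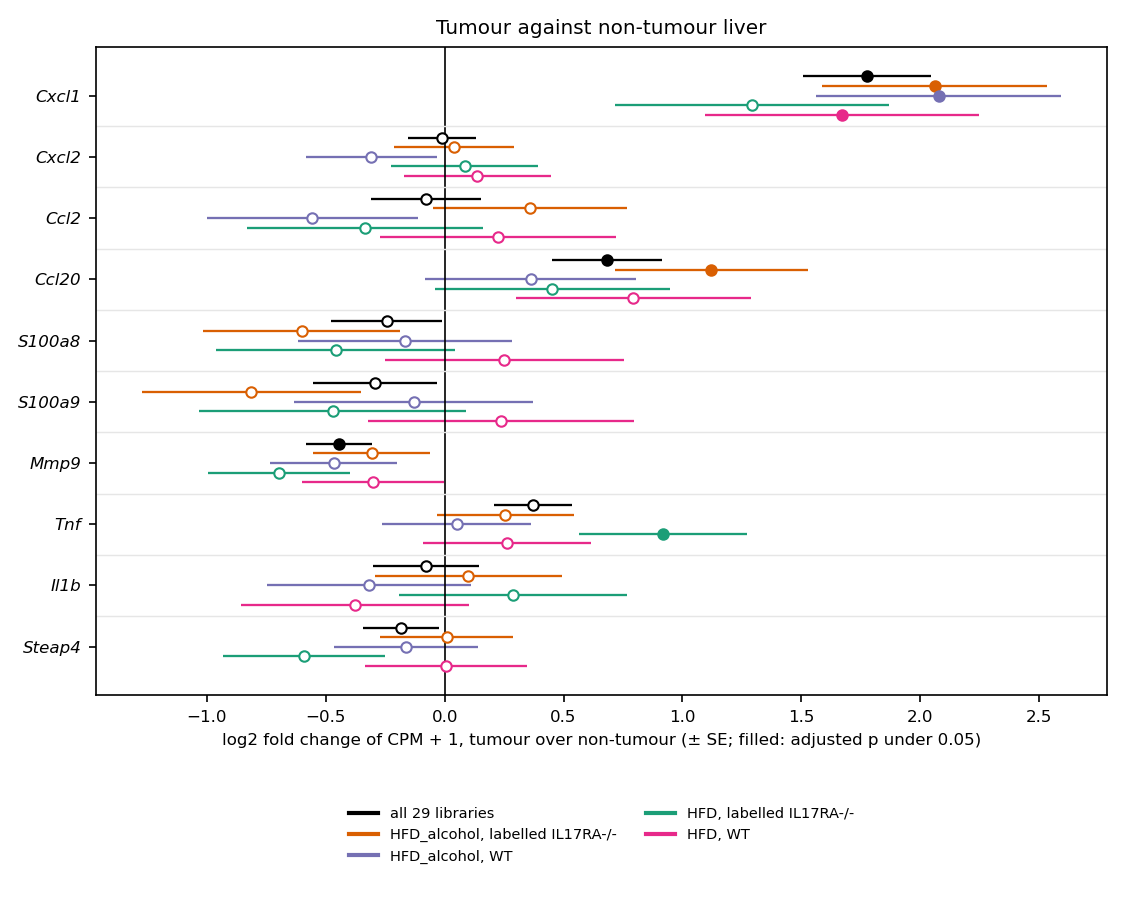
Log2 fold change of CPM + 1, tumour over non-tumour liver (horizontal axis), for the 10 genes over all libraries and within each diet and genotype label, with the SE from limma; filled points passed an adjusted p under 0.05. Cxcl1 lies between 1.29 and 2.08 in every comparison, whereas Cxcl2, Ccl2, Il1b and Steap4 lie on both sides of 0.

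Other genes known to respond to IL-17 split between directions. Of 20 listed, 13 were tested over all libraries: 6 rose in tumours, 4 fell and the median log2 fold change was 0.34, against 0.09 over all genes. In the same comparison 63.6% of all genes tested were called, so these counts are not read as a result about the list. Lcn2 (lipocalin 2), which binds bacterial siderophores, rose by 3.21 ± 0.53 (SE; limma adjusted p = 1.10e-05), with means of 920.2 CPM in tumours and 122.0 CPM in non-tumour liver. Lif, a cytokine of the IL-6 family, rose by 1.98 ± 0.18 (adjusted p = 1.13e-09), with means of 4.53 CPM in tumours and 0.266 CPM in non-tumour liver. That non-tumour mean is below the 1 CPM of the filter on low values, so the call describes the tumours in which Lif was high. Nfkbiz, which encodes IkB-zeta, and Zc3h12a, which encodes the ribonuclease Regnase-1, also rose, as did Icam1 and Ptgs2. Ptgs2 averaged under 1 CPM over the 29 libraries, so its call rests on the libraries in which it was high. The serum amyloid genes, acute phase products of hepatocytes, fell: Saa1 averaged 24.9 CPM in tumours and 153.1 CPM in non-tumour liver, a log2 difference of -2.53 ± 0.30, and Saa2, Saa3 and the transcription factor Cebpb also fell. Il6 and Csf3 were at or under the floor in every library, and Csf2 was at 0 throughout.

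The ligands were at the limit of detection. Il17a and Il17f each had 1 count in the 13 tumours and 1 in the 16 non-tumour livers, and Il25 was at 0 in every library. Il17ra was 0.71 ± 0.14 (SE) higher in tumours (limma adjusted p = 0.000116), with means of 44.4 CPM in tumours and 26.3 CPM in non-tumour liver, whereas Il17rc, its partner subunit, was at 19.9 and 19.6 CPM. By the group means given above, the Il17ra difference was larger in libraries labelled IL17RA-/- than in WT on either diet. In WT it was smaller than the larger SD of the groups compared. Among receptors of the products, 1 of 7 tested rose (Tnfrsf1a, the main TNF receptor) and 2 fell (Il1r1 and Il1rap, the IL-1 receptor subunits). Cxcr2 was at 0.721 CPM in tumours and 0.497 CPM in non-tumour liver, and Ccr6 at 0.271 and 0.0735 CPM, both near the floor. Of 7 inhibitors and decoys tested, 2 rose and 3 fell. With 63.6% of all genes called between tissues, the counts for receptors and for inhibitors are not read as a result about these lists. Il1rn, the IL-1 receptor antagonist, was among those that rose (2.32 ± 0.32; adjusted p = 9.33e-07), with means of 65.3 CPM in tumours and 13.1 CPM in non-tumour liver.

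Between libraries labelled IL17RA-/- and WT, 0 of the 10 genes passed limma in any tissue or diet, whether the diets were taken singly or together. In HFD tumours 1.61% of 13269 genes were called, 80 higher and 133 lower in libraries labelled IL17RA-/-, or 415 higher and 199 lower after median-ratio rescaling. That count of 213 became 0, 1 and 0 without HFD tumour replicate 4, 5 or 6 labelled IL17RA-/-, and 3, 1174 and 72 without HFD WT tumour replicate 4, 5 or 6. In HFD_alcohol tumours, and in non-tumour liver on HFD_alcohol, on HFD and over both diets, 0% of genes were called; over both diets in tumours 0.0301% were. At an unadjusted p under 0.05 the 10 genes gave 2 in HFD tumours, 0 in HFD_alcohol tumours, 1 in tumours over both diets, 1 and 2 in HFD_alcohol and HFD non-tumour liver, and 1 in non-tumour liver over both diets. Limma-voom on recovered counts also called 0 of the 10 in each.

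For Ccl2, HFD tumours labelled IL17RA-/- had 1.66, 3.53 and 3.68 CPM, against 8.12, 9.98 and 5.02 CPM in WT, so every value was below every WT value. Such separation, lower in libraries labelled IL17RA-/-, was seen for 16.5% of all genes tested and for 2 of the 10, Ccl2 and Cxcl2. The log2 difference was -1.14 ± 0.38 (SE; limma adjusted p = 0.111, from 0.0759 to 0.296 over 13 alternatives). In HFD_alcohol tumours Ccl2 was at 3.29, 1.78, 3.36 and 3.42 CPM in libraries labelled IL17RA-/-, against 0.947, 4.33 and 2.27 CPM in WT, and these overlapped. The genotype difference on HFD_alcohol minus that on HFD was 1.40 ± 0.52 (adjusted p = 0.310), so the 2 diets were not shown to differ. Ccr2, its receptor, had a log2 difference of -1.56 ± 0.49 in HFD tumours (adjusted p = 0.0970). The 12 monocyte and macrophage markers had a median log2 difference of -1.02 and the 7 tested T and NK cell markers -0.93, with 0 called in either. Only 1 of the 12 monocyte and macrophage markers had a positive difference, and 0 of the 7 T and NK cell markers did. Summed, the monocyte list was at 5921 to 6712 CPM in HFD tumours labelled IL17RA-/- and 4363 to 6975 CPM in HFD WT tumours. The T and NK list was at 26.0 to 68.5 CPM and 47.3 to 107.8 CPM. A sum follows the most abundant genes of a list, so the monocyte sum does not measure monocyte content. The part of these cells in the value of Ccl2 was not tested.

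Cxcl1, called between tissues, showed no such separation by genotype label: its log2 differences were -0.30 ± 0.46 (SE) in HFD_alcohol tumours, -0.01 ± 0.49 in HFD tumours, -0.29 ± 0.45 in HFD_alcohol non-tumour liver and 0.36 ± 0.58 in HFD non-tumour liver. The spread between libraries is wide beside these values, and a missed threshold does not show that the genotypes are alike. Steap4 in HFD tumours was at 223.0, 270.1 and 163.5 CPM in libraries labelled IL17RA-/-, against 224.0, 391.7 and 456.3 CPM in WT. The 1 overlap was through the highest value labelled IL17RA-/-, which lay above the lowest WT value (-0.67 ± 0.30; limma adjusted p = 0.200). In tumours over both diets S100a9 was lower by label IL17RA-/- at -0.71 ± 0.32 (adjusted p = 0.355).

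In non-tumour liver the values with an unadjusted p under 0.05 belonged to Mmp9, Tnf and Il1b. On HFD_alcohol Mmp9 was at 0.641, 0.139, 0.891, 0.422 and 1.21 CPM in libraries labelled IL17RA-/-, against 1.63, 2.14, 1.42, 0.989 and 1.31 CPM in WT, overlapping through a single library (-0.61 ± 0.24 SE; limma adjusted p = 1.0). On HFD, Tnf was at 0.873, 0 and 0 CPM against 2.66, 0.852 and 1.35 CPM in WT (-1.03 ± 0.38; adjusted p = 0.900), and Il1b at 5.79, 1.5 and 2.59 CPM against 11.9, 6.47 and 4.05 CPM in WT (-1.0 ± 0.46; adjusted p = 0.900). Neither pair separated fully, and HFD WT non-tumour replicate 1 was the highest non-tumour library for both. Separation with every library labelled IL17RA-/- below every WT library was seen for 0 of the 10 in HFD_alcohol tumours (0.935% of genes), HFD_alcohol non-tumour liver (0.0857%) and HFD non-tumour liver (8.6%). The 14 Kupffer markers all had negative log2 differences in non-tumour liver, with medians of -0.59 on HFD_alcohol and -0.65 on HFD and 0 called; summed, they were at 344.0 to 1938 CPM against 1134 to 1987 CPM in WT on HFD_alcohol, and at 891.0 to 1144 CPM against 1052 to 2324 CPM on HFD. Their part in the values of these 3 genes was not tested.

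**Figure D3:**
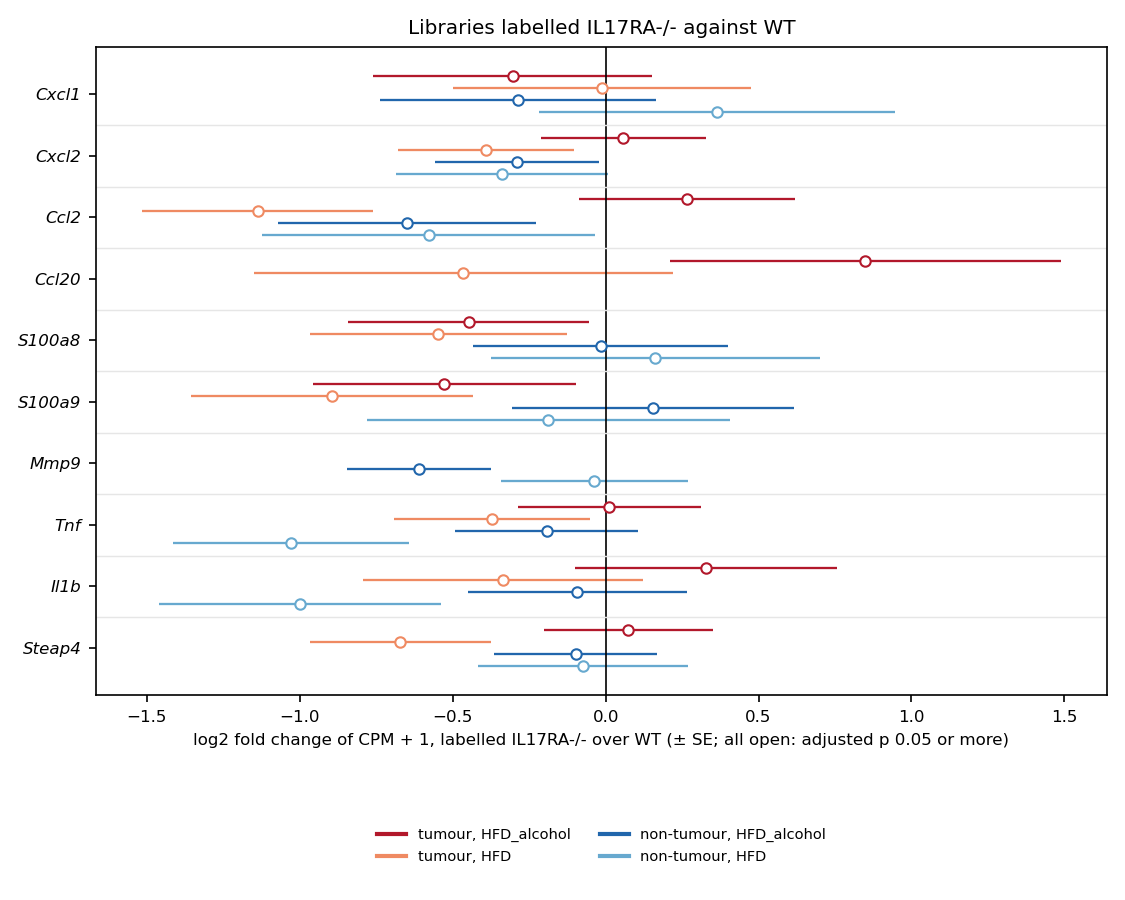
Log2 fold change of CPM + 1 in libraries labelled IL17RA-/- over WT (horizontal axis), with the SE from limma, for each of the 10 genes in the 4 combinations of tissue and diet. No point passed an adjusted p of 0.05; Ccl2 in HFD tumours lies at -1.14, and Ccl20 in non-tumour liver and Mmp9 in tumours did not pass the filter on low values.

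The list of other IL-17-responsive genes gave 0 calls by genotype label in each tissue and diet. In HFD tumours 11 of its 20 genes were tested with a median log2 difference of -0.38, against -0.09 over all genes. Saa2 (-1.72 ± 0.48 SE; limma adjusted p = 0.0704) and Saa1 (-1.29 ± 0.47; adjusted p = 0.131) were its members at an unadjusted p under 0.05. The 1 call in any of the pathway lists was Zfp36, which encodes tristetraprolin, a protein that destabilises cytokine transcripts. It was 1.24 ± 0.22 higher in HFD tumours labelled IL17RA-/- than in WT (adjusted p = 0.0315), a call lost without HFD tumour replicate 4 or 6 labelled IL17RA-/-, where 0 genes were called.

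HFD_alcohol was compared with HFD within each tissue and genotype label, and 0 of the 10 genes passed limma in any of these comparisons. The share of all genes called was 0.00754% in WT tumours and 0% in tumours labelled IL17RA-/-, in tumours over both labels, and in non-tumour liver of either label or both. At an unadjusted p under 0.05 there were 3 of the 10 in WT tumours, 3 in tumours over both labels, 1 in non-tumour liver of each label and 0 in the other 2 comparisons; limma-voom called 0 in each. WT tumours carried the widest differences, and there Ccl2 was at 0.947, 4.33 and 2.27 CPM on HFD_alcohol, against 8.12, 9.98 and 5.02 CPM on HFD. Tnf in WT tumours was at 0.271, 0.928 and 0.606 CPM on HFD_alcohol, against 1.39, 2.87 and 1.96 CPM on HFD.

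Both genes were lower in every HFD_alcohol WT tumour than in any HFD WT tumour, as were 12.1% of all genes. The log2 differences were -1.38 ± 0.38 (SE; limma adjusted p = 0.186) for Ccl2, -0.93 ± 0.32 (adjusted p = 0.215) for Tnf and -1.08 ± 0.46 (adjusted p = 0.279) for S100a9. These HFD WT tumours are also the WT side of the genotype comparison on HFD, so the 2 sets of values for Ccl2 share libraries. Over both labels, the tumour differences of HFD_alcohol from HFD were -0.74 ± 0.22 for Tnf, -0.90 ± 0.32 for S100a9 and -0.68 ± 0.26 for Ccl2, each with an adjusted p of 0.858. In non-tumour liver Mmp9 in libraries labelled IL17RA-/- (-0.61 ± 0.27; adjusted p = 0.858) and Il1b in WT (-0.88 ± 0.41; adjusted p = 0.875) had unadjusted p under 0.05. The interactions of genotype with diet in tumour and in non-tumour liver, and of genotype with tissue, gave 0 of the 10 and 0% of all genes. At an unadjusted p under 0.05 Ccl2 was the 1 of the 10 in the interaction with diet in tumours, and 0 were in the other 2.

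Some of the 10 genes went up and down together across libraries, and others, such as Ccl20, did not (r of -0.227 to 0.378 with the other 9 over 29 libraries). S100a8 and S100a9, whose products form 1 complex, were the closest pair, with Pearson r of 0.838 and Spearman rho of 0.692 over 13 tumours and 0.938 and 0.935 over 16 non-tumour livers. Without the 2 libraries farthest from the median of S100a8, r was 0.566 in tumours and 0.899 in non-tumour liver. S100a9 exceeded S100a8 in 25 of 29 libraries, equalled it in 1, and had 578 counts in all against 314. These correlations are descriptions: libraries share their scaling, and both genes are near the floor in several.

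Among all named genes tested, the 3 most like Cxcl1 over the 29 libraries by Pearson r on log2(CPM + 1) were Lcn2 (0.928), Galnt6 (0.921) and Kng2 (0.918), all of which, like Cxcl1, had higher means in tumours. Within tissues, where that difference plays no part, Cxcl1 and Lcn2 gave r of 0.815 and rho of 0.852 over 13 tumours and r of 0.837 and rho of 0.865 over 16 non-tumour livers. Without the 2 libraries farthest from the median of Lcn2, r was 0.649 and 0.769. Cxcl1 and its neighbour Cxcl2 gave r of -0.155 in tumours and 0.525 in non-tumour liver, with rho of -0.0549 and 0.432, and r of -0.473 and 0.290 without the 2 libraries farthest from the median of Cxcl2.

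**Figure D4:**
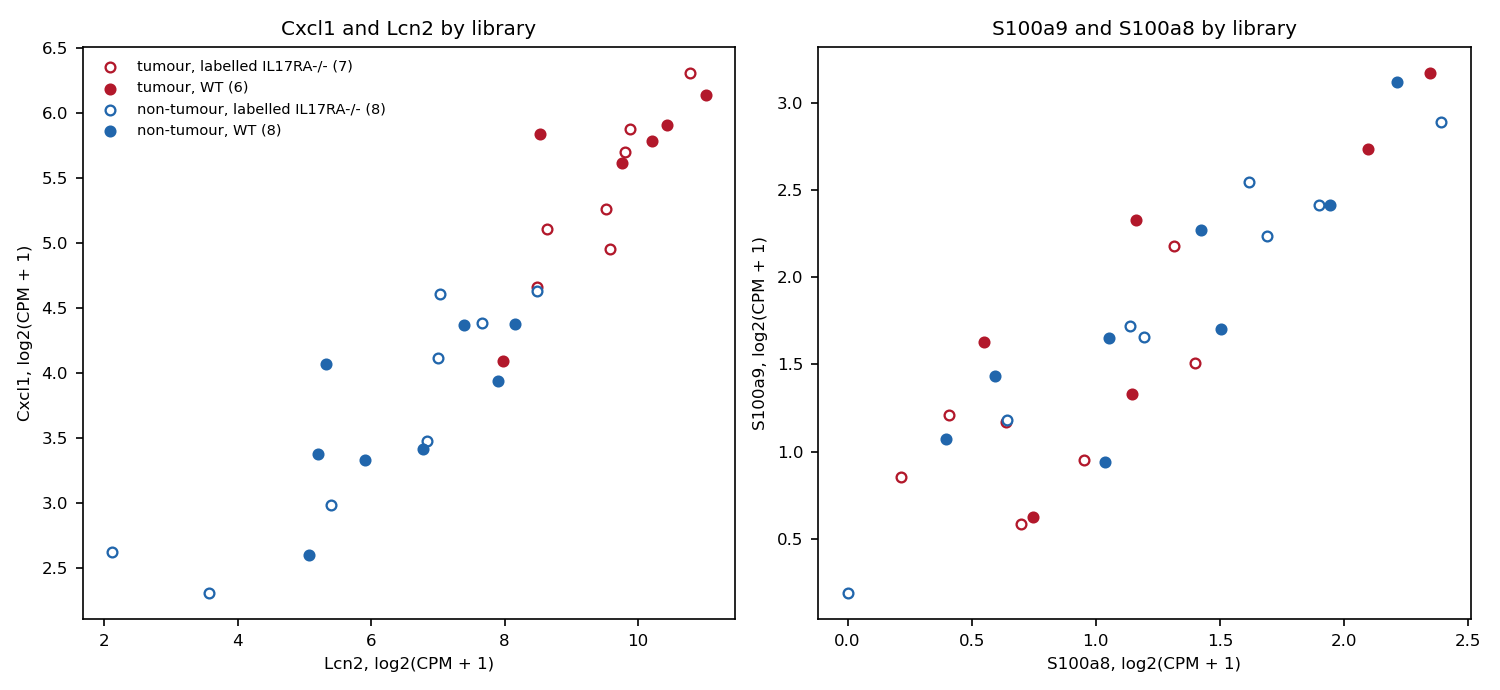
Log2(CPM + 1) of Cxcl1 against Lcn2 and of S100a9 against S100a8, 1 point per library, with colour for tissue and fill for genotype label. For Cxcl1 and Lcn2 the tumours lie at the upper right and Cxcl1 is higher where Lcn2 is higher in both tissues (r of 0.815 in tumours and 0.837 in non-tumour liver); for S100a8 and S100a9 the tissues overlap.

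The most like Ccl2 were the pattern receptor Tlr2 (0.929), H2-DMa (0.907), which loads peptides onto MHC class II, and Was (0.902), an actin regulator of blood cells. Within tissues Ccl2 and Tlr2 gave r of 0.945 and rho of 0.918 in tumours and r of 0.931 and rho of 0.859 in non-tumour liver, and r of 0.873 and 0.870 without the 2 libraries farthest from the median of Tlr2. Genes most like Il1b included Tnfaip3 (0.829), which encodes the NF-kB inhibitor A20, and Cyfip2 (0.817). For Steap4 they were Cd84 (0.858), Nckap1l (0.846) and Tlr13 (0.842), and for Mmp9 Vta1 (0.780), Treml4 (0.761) and Exoc6 (0.745). After S100a8, S100a9 was most like Naaa (0.832) and Arhgdib (0.823), and S100a8, after S100a9, was most like Clec4a2 (0.790) and Tlr13 (0.775). With group means removed, Steap4 went with S100a9 at r of 0.785 and Ccl2 with Il1b at 0.696 and with Tnf at 0.691, over 29 libraries.

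A few libraries held the highest values of many of these genes at once. HFD WT tumour replicate 5 was the highest tumour for 7 of the 10 (Cxcl2, Ccl2, S100a8, S100a9, Mmp9, Tnf and Il1b), and its summed neutrophil and Kupffer markers, 26.6 and 871.5 CPM, were also the highest of the tumours. So were its summed T and NK cell (107.8 CPM), stellate cell (1753 CPM) and cholangiocyte markers (1675 CPM). Its monocyte, B cell, endothelial and hepatocyte sums were not the highest. HFD WT non-tumour replicate 1 was the highest non-tumour library for 5 of the 10 (Ccl2, S100a9, Mmp9, Tnf and Il1b), and its summed neutrophil and Kupffer markers, 29.1 and 2324 CPM, were the highest of all. Cxcl1 was highest in neither: its top tumour value, 78.1 CPM, was in HFD_alcohol replicate 6 labelled IL17RA-/-, and its top non-tumour value, 23.7 CPM, in HFD replicate 3 labelled IL17RA-/-. The part of these cell markers in the values was not tested.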

How the data were processed

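RNA was isolated with a Purelink kit and made into stranded polyA libraries, per the labels' protocols. The submitters' processing notes name the aligner STAR 2.5.1a, the quantifier RSEM 1.3.0 and the GRCm38 build, without filters or annotation. The authors deposited CPM for 22187 gene IDs. In each library 83.4% to 86.2% of nonzero deposited CPM values were whole multiples (within 0.002) of a step standing for 1 count, which gave the depth; the rest were hundredths of a count. The floor of 3 counts covers counting error only. GENCODE M21 gave 21653 symbols; 534 IDs without one held 0.138% of counts.

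Groups came from the sample titles, and p-values measure the spread between libraries, which may be technical. Limma 3.58.1 (R 4.3.3) tested log2(CPM + 1) with a variance trend, two-sided, keeping a gene if 3 libraries of the fit (of 16 non-tumour, 13 tumour or 29) reached 1 CPM, with Benjamini-Hochberg adjusted p under 0.05 as a call; it was tested on simulated data first. Fold changes understate those of low genes. Alternatives tried were median-ratio rescaling, no filter, a pseudocount of 0.1, the compared groups alone, limma-voom on recovered counts, a replicate block, and leaving out single libraries, 4 doubted libraries or 2 far ones. The 10 genes were named whatever their values, with fold changes where the unadjusted p was under 0.05 or for contrast; likeness used Pearson r over named genes tested, 3 for each of the 7 genes averaging at least 1 CPM, of which 1 is not reported here. Permutation tests used numpy 2.4.6, and Spearman rho used scipy 1.17.1. Genes and lists were chosen with earlier results of these data known.

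Same-numbered libraries deviated together, with every correlation over 0.1 (0.330, 0.257 and 0.130), only for HFD_alcohol against HFD in WT non-tumour liver, where numbers may pair libraries. The pairing comes from the data, not the labels. Between genotype labels in HFD_alcohol non-tumour liver the values for replicates 1 to 5 were 0.399, 0.239, -0.130, -0.154 and 0.00157. Some listed genes (Cebpd, H19, Trac, Trbc2 and Trdc) were not analysed here.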

Additional observations from a re-analysis of the deposited data

Results flagged for a closer look

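Within groups of 4 or 5 libraries, 1 library lay far from the others for 3 of the 29 combinations of gene and group tested. Chance flags about 1 in 20 if values are normally distributed. That rate may not hold for CPM from low counts, so 3 of 29 is not shown to exceed chance. Ccl20 in HFD_alcohol tumour replicate 7 labelled IL17RA-/- was at 9.96 CPM, against 0.164, 0 and 1.25 CPM in the other tumours of its group. Ccl2 in HFD_alcohol tumour replicate 5 labelled IL17RA-/- was at 1.78 CPM, below 3.29, 3.36 and 3.42 CPM in the others. Steap4 in HFD_alcohol WT non-tumour replicate 1 was at 479.3 CPM, above 233.0 to 296.5 CPM in the others. Groups of 3 libraries were not tested in this way.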

How the results depend on the processing

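Of 489 fold changes of the 10 genes recomputed under the alternatives, 451 kept their direction and their side of the threshold, 18 passed it newly, 20 lost it and 0 reversed. Cxcl1 over all libraries kept its call in each of 35 alternatives, between 1.62 and 2.12; Cxcl1 minus Cxcl2 was 1.79 with a pseudocount of 0.1 (permutation p = 9e-05) and 2.12 without the 4 doubted libraries (p = 3e-05), both chosen after seeing the data. Genes called by genotype label in HFD_alcohol tumours numbered 1 with the compared groups alone, 1 without the 4 doubted libraries and 0 to 1 with single libraries left out. In HFD tumours (213) they numbered 614 after rescaling, 5 with the groups alone, 62 with the replicate block, 2 without the doubted libraries and 0 to 1174 with single libraries left out, the last without HFD WT replicate 5; over both diets (4) the range was 2 to 283, the last without the same library. For HFD_alcohol against HFD in WT tumours (1) it was 0 without a filter, after rescaling, with limma-voom, with the groups alone, with the replicate block and without the doubted libraries, and 0 to 56 with single libraries left out, the last without HFD_alcohol WT replicate 5; over both labels the replicate block gave 1. In WT non-tumour liver the range was 0 to 2. Tumour against non-tumour called 1 of the 10 on HFD_alcohol labelled IL17RA-/- (2) with limma-voom, the groups alone and the replicate block, and 1 to 2 with libraries left out. On HFD labelled IL17RA-/- (1) it called 2 after rescaling and without the doubted libraries, and 0 to 1 with libraries left out. On HFD WT (1) it called 0 with a pseudocount of 0.1, without a filter, after rescaling and with the groups alone, and 0 to 1 with libraries left out, while genes called (2072) numbered 413 with the groups alone and 1016 to 2769 with libraries left out. Interactions called 0 to 6 genes (genotype by diet, tumour) and 0 to 68 (genotype by tissue) with libraries left out, and the interaction by tissue 1 without a filter and without the doubted libraries. The cause of these changes was not tested. The replicate block changed no other call of the 10 genes; HFD tissue comparisons share no numbers and took none. Rescaling moved the median of all genes by 0.12 for genotype in HFD non-tumour liver by 0.15 for diet in WT tumours, and by -0.14 and -0.15 for the interaction with diet in non-tumour liver and in tumours. In HFD tumours all 9 tested of the 10 were negative by genotype label, against 7 of 8 after rescaling. Depth limits Cxcl2, Ccl20, Mmp9 and Tnf most.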
